A study of Mus musculus with 18 samples.

Results

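Direct AOS treatment was compared with no AOS in testes of ICR mice sampled at 10 weeks of age, with or without a high-fat diet (HFD). Of the 18 RNA sequencing libraries of the series, 12 entered the comparison. These were 6 libraries given AOS at 10 mg/kg, namely 3 without the diet (AOS) and 3 on it (HFD-AOS), and 6 not given AOS, namely 3 without the diet (control) and 3 on it (HFD). The libraries were chosen by their treatment labels alone, and the AOS effect was the AOS term of an additive model with diet as the second factor. The other 6 libraries came from mice on the diet that received FMT labelled as AOS at 10 mg/kg (HFD-AOSFMT) or as control (HFD-conFMT), and their values are given where they bear on a result. AOS and FMT are printed as labelled, because no label expands them. Values are given as FPKM, a read abundance per transcript length and library size, a unit inferred from the values because the table names none, and a gene was tested where its average across the 18 libraries reached 1 FPKM.

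Cholesterol is made from acetyl-CoA through mevalonate, isoprenoids, squalene and lanosterol. In most cells the genes of this route are switched together by SREBP factors, which are released from the membrane when sterol is scarce and are retained there by INSIG proteins when it is plentiful. In the testis, Leydig cells turn cholesterol into testosterone, and germ cells make sterol intermediates and long polyunsaturated fatty acids for their membranes.

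The promoters of 3 sterol synthesis genes are shown because their genes carry the main pattern described here. Hmgcs1 stands before squalene, Lss closes the sterol ring, and Msmo1 had the smallest p of all genes that were lower with AOS. Each window covers 250 bases before to 50 bases after the annotated start, from RefSeq on GRCm38.p6, 5′ to 3′ on the strand of the gene. Capitals mark CCAAT on either strand and, in Hmgcs1 alone, a match to TCACNCCAC, a letter pattern of sterol regulatory elements, on either strand. The windows are chr13:119690101-119690400 on the plus strand for Hmgcs1, chr10:76531355-76531654 on the plus strand for Lss and chr8:64733529-64733828 on the minus strand for Msmo1.
Hmgcs1: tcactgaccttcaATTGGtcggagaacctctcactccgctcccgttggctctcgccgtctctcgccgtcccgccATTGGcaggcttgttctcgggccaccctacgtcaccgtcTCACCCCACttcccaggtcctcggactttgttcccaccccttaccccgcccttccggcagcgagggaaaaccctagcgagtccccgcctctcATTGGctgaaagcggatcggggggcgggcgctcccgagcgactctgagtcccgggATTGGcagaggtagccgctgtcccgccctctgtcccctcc
Lss: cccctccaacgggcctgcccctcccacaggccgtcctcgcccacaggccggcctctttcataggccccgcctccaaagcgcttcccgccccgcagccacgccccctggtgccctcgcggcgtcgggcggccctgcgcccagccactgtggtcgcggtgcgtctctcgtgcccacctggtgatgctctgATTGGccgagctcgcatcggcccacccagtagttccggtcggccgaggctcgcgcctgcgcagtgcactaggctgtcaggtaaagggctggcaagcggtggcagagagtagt
Msmo1: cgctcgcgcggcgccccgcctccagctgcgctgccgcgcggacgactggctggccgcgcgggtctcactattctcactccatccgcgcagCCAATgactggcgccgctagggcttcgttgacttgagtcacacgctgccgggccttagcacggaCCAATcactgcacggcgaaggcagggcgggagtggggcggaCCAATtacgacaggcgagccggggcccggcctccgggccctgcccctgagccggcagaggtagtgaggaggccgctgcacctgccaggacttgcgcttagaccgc
The TCACNCCAC match of Hmgcs1 lay 137 bases before the start, and 1.44% of all genes with such a window held one. CCAAT was present for 9 of the 9 genes between squalene and cholesterol that had a window and for 6 of the 7 genes before squalene, against 41.1% of all genes with a window. TCACNCCAC was in the window of 1 of those 7 genes, of 0 of the 9 genes between squalene and cholesterol and of 0 of 16 fatty acid synthesis genes. In these windows no match to one motif overlaps a match to the other, and a match describes the sequence only.

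Each library summed to 588160 to 637077 FPKM, and 12996 to 13221 genes reached 1 FPKM. Absolute depth is unknown, so no counting error can be given. The median absolute log2 difference between a pair of the 12 libraries was 0.079 to 0.137 within groups and 0.084 to 0.152 between groups. HFD-AOS replicate 1 stood apart, with differences of 0.129 and 0.137 to the other 2 libraries of its group, while other pairs within groups reached at most 0.110. Results that it moves most are given without it as well. Transcripts of sperm chromatin proteins (protamines and transition proteins) took up 8.13 to 9.23% of the summed FPKM in the 6 libraries given AOS and 6.54 to 8.46% in the 6 libraries without it. Defining markers of Leydig, Sertoli and peritubular cells, macrophages and germ cells were detected in all 12 libraries, for example Star, Clu, Acta2, C1qb, Stra8, Sycp3 and Prm1. Crisp1, an epididymal secretory gene, was at 0.05 to 0.1 FPKM in libraries given AOS and at 0.15 to 158.77 FPKM in those without, with the highest value in control replicate 3. Whether each replicate was its own animal is not stated in the labels, and the p-values reflect only the spread among these samples, which may be technical.

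No gene reached an adjusted p under 0.05 for the AOS effect (limma, 0% of 13105 genes), but many stood just above it. The lowest adjusted p was 0.0589, shared by 20 genes, and 188 genes lay under 0.1, of which 80 were higher and 108 were lower with AOS (limma). An unadjusted p under 0.05 was reached by 790 genes that were higher with AOS (6.03%) and 1470 that were lower (11.2%). All 6 values with AOS lay above all 6 without for 65 genes (0.496%) and below them for 127 genes (0.969%). When the same contrast was taken from a fit that also held the 6 FMT libraries, limma called 112 genes higher (0.855%) and 176 genes lower (1.34%). That fit gave the same fold changes and altered only the error estimate, so its calls are no independent evidence. Without HFD-AOS replicate 1, limma called 33 genes higher and 13 lower. The median log2 fold change of all genes was -0.02, with 5300 genes higher (40.4%) and 7805 lower (59.6%). Median-ratio scaling turned the split at unadjusted p under 0.05 to 1153 higher and 916 lower, and quantile normalization gave 908 higher and 1140 lower. In what follows, higher and lower give the sign of a fold change on the log2(FPKM + 1) scale, on which low genes show too small a change, and no gene named passed the adjusted threshold for the AOS effect in the 12 libraries.

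The late steps of cholesterol synthesis were lower with AOS as a group. All gene lists were written with earlier results of these data known, so their counts and medians are descriptions and not tests. All 11 genes tested between squalene and cholesterol were lower, and all 11 were lower in both diets, as were 5016 of all 13105 genes. Of these, 9 had an unadjusted p under 0.05, and in 6 all libraries given AOS lay below all others. The median log2 fold change of the group was -0.30, with -0.24 for AOS minus control and -0.25 for HFD-AOS minus HFD. In bulk tissue, fewer cells of a type and less RNA per cell cannot be told apart.

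**Figure D1:**
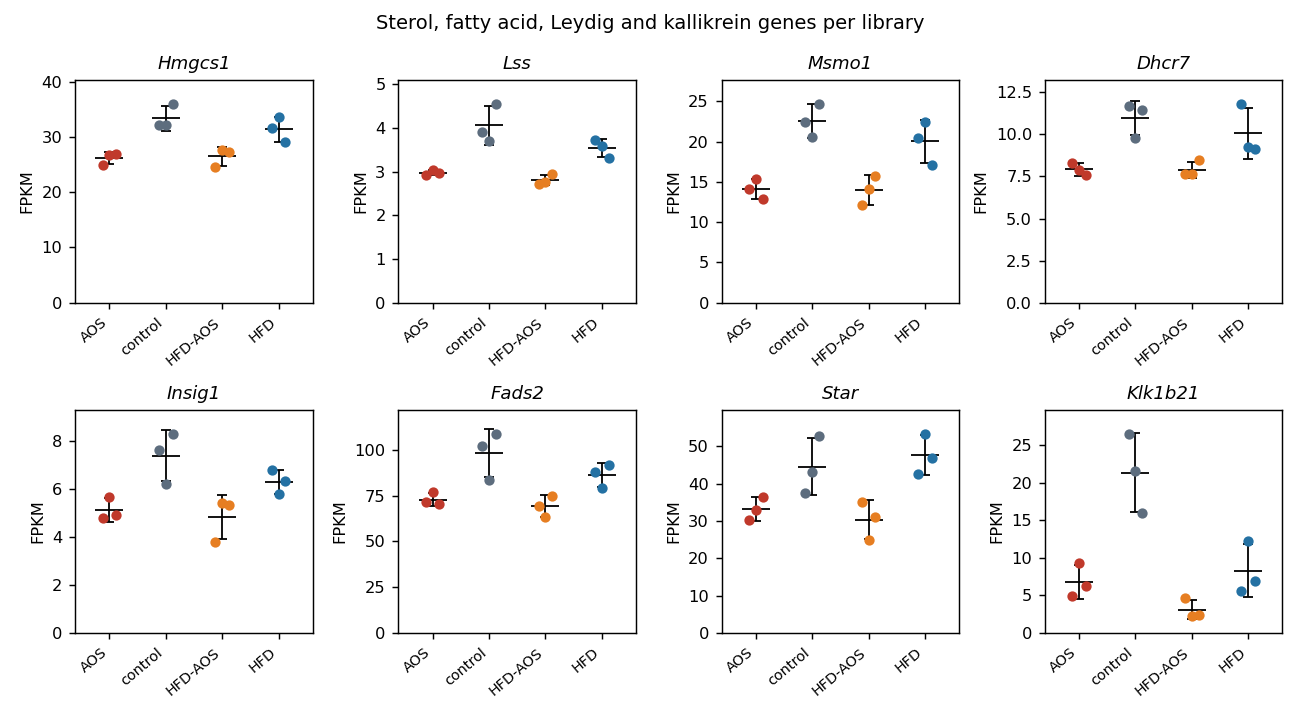
Values per library in FPKM for 8 genes of sterol synthesis, fatty acid desaturation, Leydig cells and the kallikrein cluster, with each point 1 library and the bars the mean and SD of 3 libraries. In Hmgcs1, Lss, Msmo1, Dhcr7, Insig1, Fads2 and Star every point of AOS and HFD-AOS lies below every point of control and HFD, whereas in Klk1b21 HFD overlaps AOS.

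Msmo1, the methylsterol monooxygenase that strips methyl groups from lanosterol products, had 14.1, 15.3 and 12.8 FPKM in AOS testes against 22.5, 20.6 and 24.7 FPKM in control testes. It had 12.1, 14.1 and 15.8 FPKM in HFD-AOS testes against 20.5, 22.4 and 17.2 FPKM in HFD testes. The groups did not overlap in either diet, and the log2 fold change was -0.57 ± 0.08 (SE, limma adjusted p = 0.0589).

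Lss, the lanosterol synthase, had 2.92, 3.05 and 2.97 FPKM in AOS against 3.91, 3.71 and 4.56 FPKM in control, and 2.71, 2.77 and 2.95 FPKM in HFD-AOS against 3.73, 3.58 and 3.32 FPKM in HFD. Again every value with AOS was below every value without (log2 fold change -0.30 ± 0.05, SE, limma adjusted p = 0.0589). Dhcr7, which makes cholesterol from its direct precursor, had a lowest, median and highest value of 7.58, 7.76 and 8.46 FPKM with AOS and of 9.15, 10.6 and 11.8 FPKM without (log2 fold change -0.37). Its values did not overlap between the 6 and 6 libraries. The dehydrogenase Nsdhl (11.5 to 13.6 FPKM with AOS, 14.0 to 15.8 FPKM without, log2 -0.22) and the sterol reductase Tm7sf2 (2.67 to 3.84 FPKM with AOS, 3.98 to 5.02 FPKM without, log2 -0.33) did not overlap either. The desaturase Sc5d had the second largest fold change of the group (log2 -0.43), with 4.2 to 7.05 FPKM with AOS and 7.02 to 10.25 FPKM without, so that 1 value crossed. Log2 fold changes were -0.10 for the squalene epoxidase Sqle, -0.12 for the demethylase Cyp51, -0.16 for the isomerase Ebp and -0.26 for the reductase Hsd17b7. In the fit over all 18 libraries, limma called 7 of the 11 lower, against 1.34% of all genes. The limma adjusted p was 0.0176 for Msmo1, 0.0232 for Lss and 0.0244 for Tm7sf2.

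The steps before squalene were less uniform. Of 10 genes, 9 were lower and 1 higher, 4 of them lower and 1 higher at unadjusted p under 0.05, with a median log2 fold change of -0.07. Hmgcs1, the cytosolic HMG-CoA synthase, had 24.9, 26.7 and 27.0 FPKM in AOS against 32.2, 32.1 and 36.1 FPKM in control, and 24.6, 27.6 and 27.3 FPKM in HFD-AOS against 31.6, 33.6 and 29.0 FPKM in HFD. It did not overlap between the groups (log2 fold change -0.29 ± 0.05, SE, limma adjusted p = 0.0589). Mvd, the mevalonate diphosphate decarboxylase, ran from 1.66 to 2.14 FPKM with AOS and from 2.34 to 3.53 FPKM without (log2 -0.31), and the thiolase Acat2 had a log2 fold change of -0.36. The squalene synthase Fdft1 had a log2 fold change of -0.01, and the phosphomevalonate kinase Pmvk was the gene that was higher (log2 0.17). In the fit over all 18 libraries, limma called 3 of the 10 lower (Hmgcs1, Mvd and Acat2), against 1.34% of all genes.

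Among 11 tested genes that sense or regulate sterol, 8 were lower and 3 higher (3 lower at unadjusted p under 0.05). Insig1, which holds SREBP in the membrane and is itself an SREBP target, had 4.78, 5.68 and 4.93 FPKM in AOS against 7.65, 6.22 and 8.31 FPKM in control, and 3.79, 5.43 and 5.34 FPKM in HFD-AOS against 6.79, 5.8 and 6.32 FPKM in HFD. The highest value with AOS lay just below the lowest without (log2 fold change -0.39 ± 0.09, SE, limma adjusted p = 0.0798). Rnf139, a sterol-responsive ubiquitin ligase, had a log2 fold change of -0.15. The SREBP genes themselves differed little, with log2 fold changes of -0.04 for Srebf1 and 0.03 for Srebf2. Of 13 genes of sterol uptake, carriage and efflux, 11 were lower and 2 higher (3 lower at unadjusted p under 0.05, median log2 -0.07). The sterol carrier Stard4 had a log2 fold change of -0.23 and the cholesterol esterifying enzyme Soat1 of -0.16.

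Fatty acid synthesis, elongation and desaturation showed a similar but smaller pattern. Of 20 tested genes, 19 were lower and 1 higher, 16 were lower in both diets, and 10 had an unadjusted p under 0.05, all lower. The median log2 fold change was -0.14. Fads2, the desaturase that starts the making of long polyunsaturated fatty acids, had 71.2, 77.0 and 70.2 FPKM in AOS against 102.0, 83.4 and 108.7 FPKM in control, and 69.4, 63.1 and 74.9 FPKM in HFD-AOS against 87.8, 79.1 and 91.9 FPKM in HFD. No value with AOS reached the lowest value without (log2 fold change -0.37 ± 0.07, SE, limma adjusted p = 0.0639). Acly, which supplies cytosolic acetyl-CoA, also did not overlap, with 12.8 to 14.5 FPKM with AOS and 15.7 to 20.1 FPKM without (log2 -0.25). Fads1, the desaturase downstream of Fads2, ran from 20.7 to 27.9 FPKM with AOS and from 27.1 to 47.9 FPKM without (log2 -0.43), with overlap. The malic enzyme Me1 (log2 -0.18), the elongases Elovl5 (-0.22) and Elovl2 (-0.13) and the desaturase Scd2 (-0.22) were lower as well. The core enzymes Acaca (-0.04) and Fasn (-0.08) differed less. In the fit over all 18 libraries, limma called 6 of the 20 lower, against 1.34% of all genes. Fatty acid oxidation differed less (16 of 20 lower, 4 higher, 6 lower at unadjusted p under 0.05, median log2 -0.05), with a log2 fold change of -0.26 for the mitochondrial dehydrogenase Acadm.

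**Figure D2:**
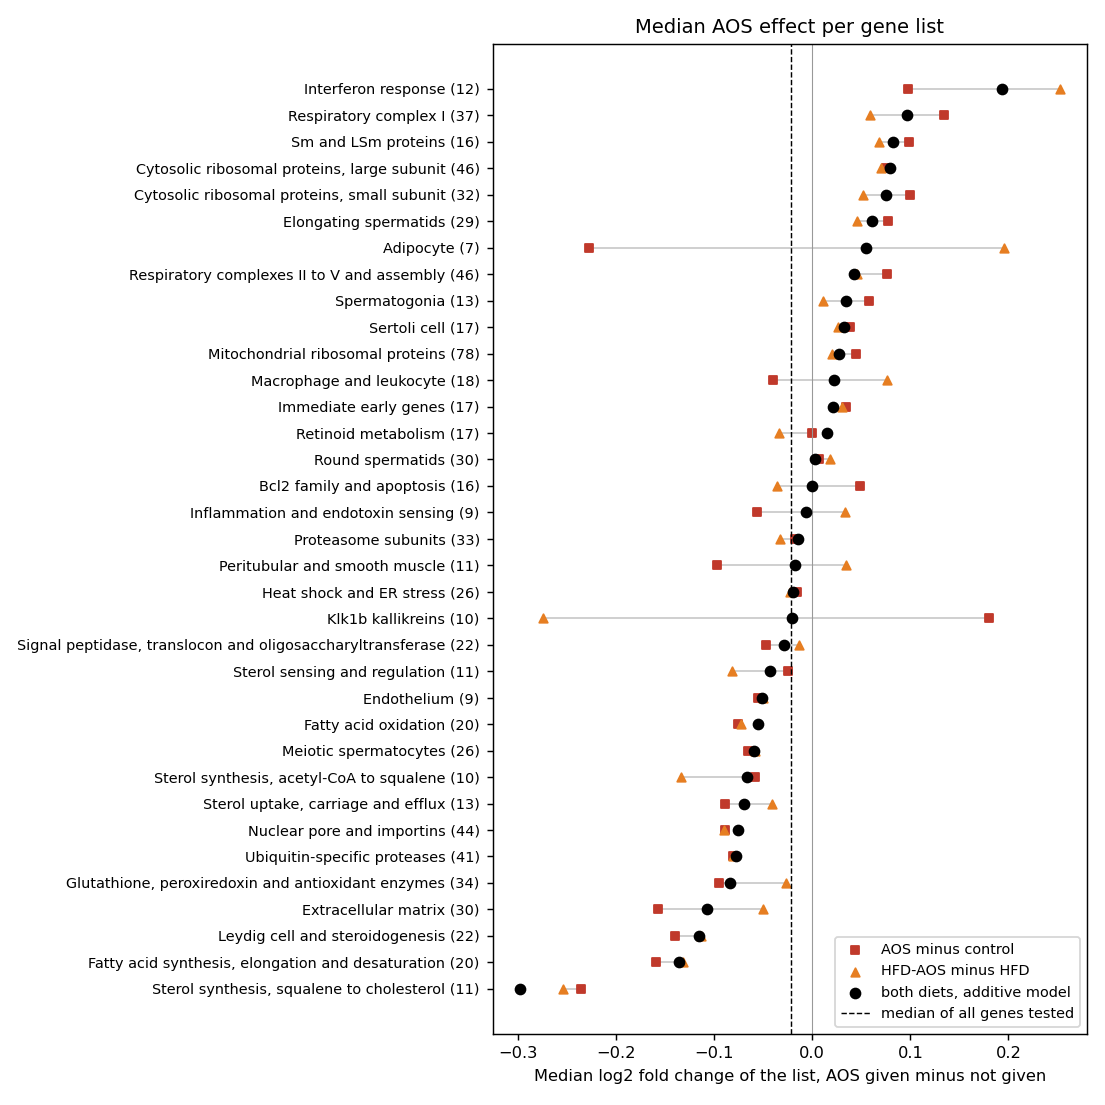
Median log2 fold change of each gene list with at least 7 tested genes, AOS given minus not given, with the number of tested genes in brackets. Black points give both diets together, squares AOS minus control, triangles HFD-AOS minus HFD, and the dashed line the median of all genes tested (-0.02). Late sterol synthesis lies farthest to the left, at -0.30, and the interferon response farthest to the right, at 0.19.

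Leydig cell and steroidogenic genes were mostly lower with AOS, but with wide spread. Of 22 tested genes, 18 were lower and 4 higher, 5 had an unadjusted p under 0.05 (all lower), and the median log2 fold change was -0.12. Star, which brings cholesterol into mitochondria for steroid synthesis, had 30.1, 33.0 and 36.5 FPKM in AOS against 37.6, 43.1 and 52.8 FPKM in control, and 35.0, 24.8 and 31.1 FPKM in HFD-AOS against 42.6, 53.3 and 46.8 FPKM in HFD. It was the gene of this list whose groups did not overlap (log2 fold change -0.52 ± 0.10, SE, limma adjusted p = 0.0736). Prlr, the prolactin receptor, had a log2 fold change of -0.28, with 3.24 to 4.41 FPKM with AOS and 3.89 to 5.32 FPKM without. Cyp11a1, which cleaves the cholesterol side chain, had log2 fold changes of -0.54 for AOS minus control and -0.14 for HFD-AOS minus HFD, and Cyp17a1, the next androgen enzyme, of -0.45 and -0.14. Insl3, the main peptide hormone of Leydig cells, had 2119 to 4367 FPKM with AOS and 2517 to 3964 FPKM without, with full overlap. The steroidogenic enzymes Hsd3b1 (log2 0.05) and Hsd17b3 (-0.03) and the Leydig transcription factor Nr5a1 (0.02) were near 0. The summed FPKM of the list was 3262 to 5723 with AOS and 4072 to 5614 without. Aldh1a1, a retinal dehydrogenase on the Leydig and retinoid lists, had a log2 fold change of -0.57, with 141.5 to 282.6 FPKM with AOS and 245.8 to 427.1 FPKM without. In the fit over all 18 libraries, limma called 2 of the 22 lower (Star and Prlr), against 1.34% of all genes.

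Within the Klk1b kallikreins, serine proteases that include androgen-regulated members, 3 of 10 tested genes differed by more than 1 log2 unit. Klk1b21 had 4.92, 9.28 and 6.21 FPKM in AOS against 26.5, 21.6 and 15.9 FPKM in control, and 4.59, 2.31 and 2.41 FPKM in HFD-AOS against 5.64, 12.3 and 6.88 FPKM in HFD. Within each diet the groups did not overlap, although HFD overlapped AOS (log2 fold change -1.34 ± 0.21, SE, limma adjusted p = 0.0589). Klk1b21 was also low in the FMT libraries, at 5.91, 4.26 and 6.03 FPKM in HFD-AOSFMT and 3.28, 1.44 and 2.86 FPKM in HFD-conFMT. Klk1b24 (-1.30) did not overlap within either diet, and Klk1b27 (-1.38) overlapped on the diet, where 1 HFD-AOS value of 4.06 FPKM exceeded 1 HFD value of 3.94 FPKM (limma adjusted p = 0.0589 for each). Reads of these near-identical copies can be split uncertainly, so the 3 may not be independent. Of the other 7 kallikreins tested, 5 were higher and 2 lower, led by Klk1b4 (0.27) and Klk1b8 (0.16), the other 2 members with an unadjusted p under 0.05. Among members under the filter, Klk1b16 had 0.38 to 1.07 FPKM with AOS and 1.09 to 2.46 FPKM without, and did not overlap. Klk1b22 had 0 to 1.28 FPKM with AOS and 0.55 to 4.26 FPKM without. Klk1b1 and Klk1b11, also under the filter, overlapped. The list median was -0.02, with 0.18 for AOS minus control and -0.27 for HFD-AOS minus HFD, and it turned to 0.06 without HFD replicate 3.

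Other somatic markers are given beside these results, and their part in them was not tested. Of 17 Sertoli genes, 12 were higher and 5 lower, with a summed FPKM of 916 to 1016 with AOS and 891 to 992 without; the growth factor Kitl (log2 -0.37) and the iron carrier Trf (-0.23) were the members of smallest p. Peritubular genes had 5 of 11 higher, with a summed FPKM of 328 to 378 with AOS and 332.0 to 355 without, and named members Actg2 (0.06) and Cnn1 (-0.16). Endothelial genes had 3 of 9 higher, with Eng at -0.17 and Kdr at -0.13. Macrophage and leukocyte genes had 10 of 18 higher, with H2-Eb1 at 0.52 and Ctss at 0.14. H2-Eb1 was 4.72 FPKM in AOS replicate 2, against 1.66 to 2.23 FPKM in the other libraries given AOS. The list median of 0.02 was -0.04 without AOS replicate 2. The 5 blood genes were all lower, by -0.55 for Hbb-b2 and -0.30 for Hbb-b1, and their sum was 81.3 to 152.5 FPKM with AOS and 71.0 to 180.3 FPKM without. Of 7 adipocyte genes 5 were higher, with Adipoq at 0.06 and Pparg at 0.03, while Plin1 and Cidec did not reach the filter. Of 24 epididymal genes 5 passed the filter, among them Cst8 (0.16) and Crisp1, whose log2 fold change of -1.64 was -0.55 without control replicate 3. That library also held Adam7 at 8.62 FPKM and Rnase9 at 5.42 FPKM, against at most 0.07 and 0.2 FPKM in the rest of the 12. HFD-conFMT replicate 2 likewise had Crisp1 at 103.97, Adam7 at 4.28 and Rnase9 at 3.99 FPKM. Without control replicate 3 the late sterol median was -0.26. Extracellular matrix genes were lower in 25 of 30 (8 lower and 1 higher at unadjusted p under 0.05, median log2 -0.11), with the metalloprotease inhibitors Timp2 (-0.23) and Timp1 (-0.33) as members of smallest p.

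Genes of the respiratory chain, ribosome and late sperm development were mostly higher with AOS. Of 37 complex I genes, 27 were higher and 10 lower, with 12 higher and 1 lower at unadjusted p under 0.05 and a median log2 fold change of 0.10. Without HFD-AOS replicate 1, 31 were higher, 19 of them at unadjusted p under 0.05. Ndufv3, a complex I subunit, had 45.1, 41.3 and 44.8 FPKM in AOS against 33.5, 31.9 and 33.7 FPKM in control, and 43.5, 38.5 and 49.5 FPKM in HFD-AOS against 35.2, 36.5 and 36.1 FPKM in HFD. All values with AOS were above all values without (log2 fold change 0.33 ± 0.05, SE, limma adjusted p = 0.0589). Ndufb7, another subunit, had a log2 fold change of 0.27 and overlapped, since HFD replicate 1 reached 104.6 FPKM. Of 46 genes of complexes II to V and their assembly, 34 were higher and 12 lower (10 higher and 1 lower at unadjusted p under 0.05, median log2 0.04), against 36 higher, 18 of them at unadjusted p under 0.05, and a median of 0.07 without HFD-AOS replicate 1. With the length and GC trend removed, the median of complexes II to V was 0.02. Higd1a, a small inner membrane protein of the respiratory chain, ran from 16.4 to 18.6 FPKM with AOS and from 13.2 to 15.7 FPKM without (log2 0.23 ± 0.04, SE, limma adjusted p = 0.0589). Its relative Higd2a had a log2 fold change of 0.24 and did not overlap either.

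Of 46 large ribosomal subunit genes, 35 were higher and 11 lower (16 higher and 0 lower at unadjusted p under 0.05), with a median log2 fold change of 0.08. Rpl27 had 158.6, 142.9 and 152.3 FPKM in AOS against 129.2, 119.8 and 130.5 FPKM in control, and 146.1, 153.7 and 169.3 FPKM in HFD-AOS against 122.3, 135.4 and 132.9 FPKM in HFD. It did not overlap (log2 0.26 ± 0.04, SE, limma adjusted p = 0.0589), and neither did Rpl32 (0.16). Small subunit genes were higher in 23 of 32 (8 higher at unadjusted p under 0.05, median 0.08), with Rps18 at 0.16. Without HFD-AOS replicate 1, 25 were higher, 16 of them at unadjusted p under 0.05. Ribosomal protein genes have many near-identical pseudogenes, which makes the assignment of their reads uncertain. Mitochondrial ribosomal genes were higher in 53 of 78 (9 higher at unadjusted p under 0.05, median 0.03, or 0.05 without HFD-AOS replicate 1), with Mrps12 at 0.27 and Mrpl54 at 0.22. Sm and LSm genes of the splicing machinery were higher in 13 of 16 (5 at unadjusted p under 0.05, median 0.08), with Lsm3 at 0.18 and Snrpd2 at 0.24.

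**Figure D3:**
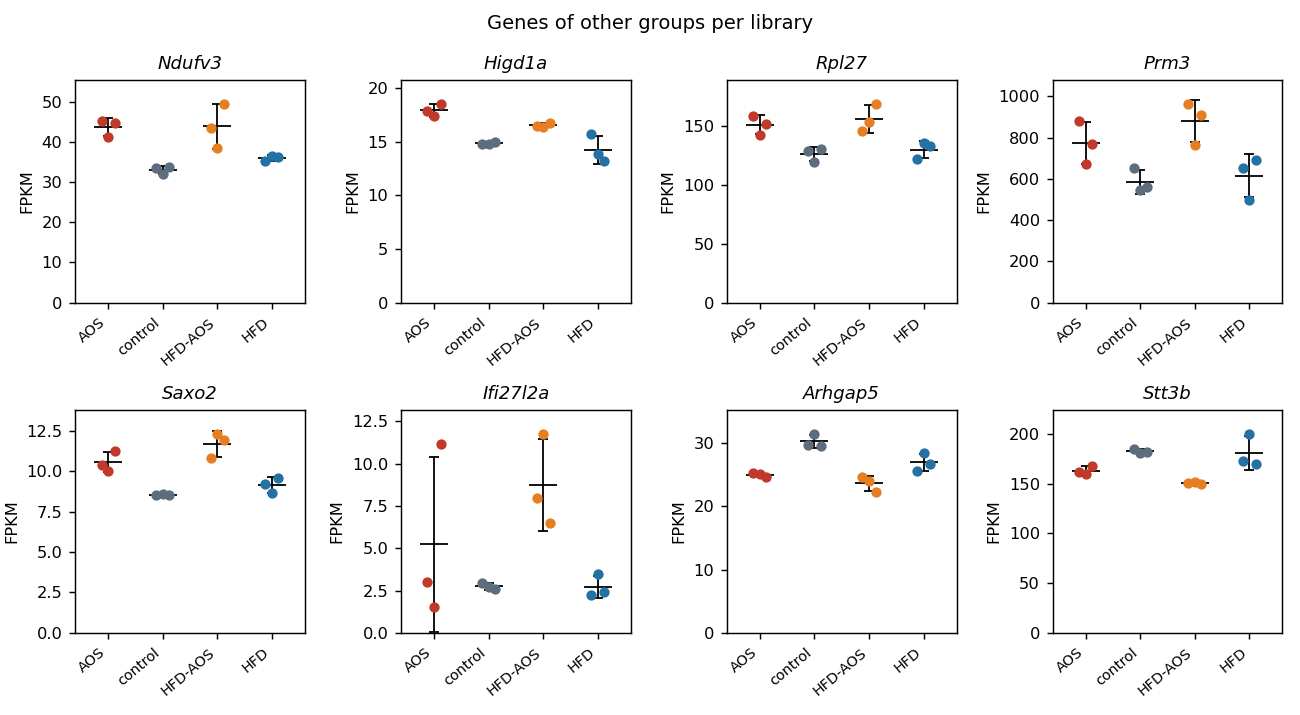
Values per library in FPKM for 8 genes outside lipid metabolism, with each point 1 library and the bars the mean and SD of 3 libraries. Ndufv3, Higd1a, Rpl27 and Saxo2 lie higher, and Arhgap5 and Stt3b lower, in every AOS and HFD-AOS library than in any control or HFD library, while Ifi27l2a is high in AOS replicate 3 and the HFD-AOS libraries alone.

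Elongating spermatid genes were higher in 24 of 29 (8 higher and 0 lower at unadjusted p under 0.05), with a median log2 fold change of 0.06 that turned to -0.01 under quantile normalization. Prm3, a protamine-related gene of late spermatids, had 878.1, 674.1 and 770.0 FPKM in AOS against 651.7, 544.0 and 562.4 FPKM in control, and 964.7, 765.1 and 908.6 FPKM in HFD-AOS against 653.7, 497.2 and 693.8 FPKM in HFD. It overlapped by 1 value (log2 0.46 ± 0.09, SE, limma adjusted p = 0.0774), and the protamine Prm2 had a log2 fold change of 0.32. Over 23 alternative settings of the processing, the Prm2 value ran from 0.03 to 0.36 and that of Prm3 from 0.33 to 0.51. Round spermatid genes were split, with 18 of 30 higher and a median of 0.00, led by the testis kinase Tssk3 (0.14) and the sperm glycolytic enzyme Gapdhs (0.16). Meiotic genes were lower in 18 of 26 (7 lower and 2 higher at unadjusted p under 0.05, median -0.06). Among synaptonemal complex genes, Sycp1 was lower (-0.22) and Syce3 higher (0.33). Spermatogonial genes were higher in 10 of 13, with Dmrt1 at 0.15 and Sohlh1 at -0.16. The larger protamine share given above moves with the spermatid genes, and its part in the other groups was not tested.

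The 5 genes of smallest p among those higher with AOS were Saxo2, which binds sperm axoneme microtubules, Tmem89, 2300009A05Rik, Ndufv3 and Tmem191c. Saxo2 had 10.4, 10.0 and 11.2 FPKM in AOS against 8.53, 8.58 and 8.5 FPKM in control, and 10.8, 12.3 and 11.9 FPKM in HFD-AOS against 9.21, 8.62 and 9.59 FPKM in HFD. The 6 and 6 values did not overlap (log2 0.30 ± 0.04, SE, limma adjusted p = 0.0589). Tmem89 (0.30), 2300009A05Rik (0.25) and Tmem191c (0.27) did not overlap either. In HFD-conFMT, not labelled as AOS, Saxo2 had 9.84, 10.97 and 10.88 FPKM, and Tmem89 had 73.35, 75.65 and 81.36 FPKM. There 2300009A05Rik had 99.76, 102.49 and 111.53 FPKM, and Ndufv3 had 40.93, 49.62 and 40.3 FPKM. For these genes every HFD-conFMT value lay above every control and HFD value. Tmem191c differed, as HFD-conFMT replicate 1 (55.94 FPKM) lay below HFD replicate 3 (56.96 FPKM). The cause of these levels was not tested. Among lower genes, Msmo1, Klk1b21 and Klk1b24 were joined by Arhgap5, a GTPase activating protein (-0.22), and Sdcbp, the scaffold syntenin (-0.22), both without overlap.

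Groups of long-transcript genes were lower. Nuclear pore and importin genes were lower in 41 of 44 (18 lower at unadjusted p under 0.05, median log2 -0.08), with Ranbp2 at -0.17 and the exportin Xpo1 at -0.19. Ubiquitin-specific proteases were lower in 35 of 41 (15 lower at unadjusted p under 0.05, median -0.08), with Usp32 at -0.16 and Usp47 at -0.15. Across 12851 genes with an annotated length, the AOS fold change was related to transcript length (Spearman correlation -0.33) and with GC share (0.36). These are descriptions across genes, which are not independent and share the same 12 libraries. The shortest of 4 length bins, up to 1768 bases, had a median log2 fold change of 0.03 with 61.8% higher, and the longest bin, over 4368 bases, had -0.06 with 22% higher. The length relation was present in both diets (Spearman correlation of -0.32 for AOS minus control and of -0.21 for HFD-AOS minus HFD). With the length and GC trend removed, the median was -0.03 for both nuclear pore genes and ubiquitin-specific proteases, 0.04 for large ribosomal subunit genes and 0.06 for complex I. For late sterol synthesis it was -0.27, with 9 of 11 genes still at an unadjusted p under 0.05.

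**Figure D4:**
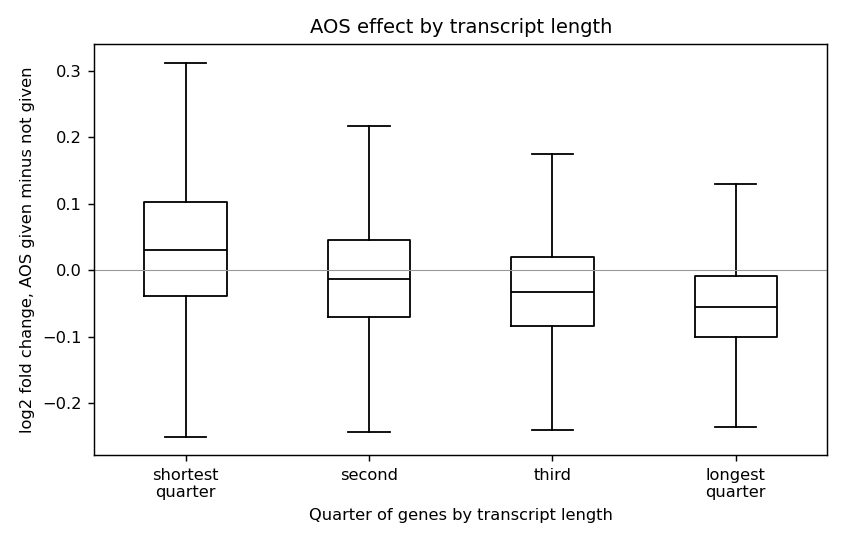
Log2 fold change of AOS given minus not given for 12851 genes in 4 bins of transcript length, with boxes from the lower to the upper quartile, the median as a line and whiskers to the last gene inside the usual outlier limit. The median is 0.03 in the shortest bin and -0.06 in the longest.

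Remaining groups showed smaller or uneven differences. Interferon response genes were higher in 9 of 12 (3 at unadjusted p under 0.05, median log2 0.19). Ifi27l2a, an interferon-induced gene, had 3.01, 1.54 and 11.1 FPKM in AOS against 2.95, 2.73 and 2.57 FPKM in control, and 7.95, 11.8 and 6.48 FPKM in HFD-AOS against 2.24, 3.49 and 2.41 FPKM in HFD. Within the diet the groups did not overlap, but without it AOS replicate 3 alone was high (log2 0.89, limma adjusted p = 0.191). The median of the list was 0.10 without AOS replicate 3, and the antiviral membrane protein Bst2 had a log2 fold change of 0.42.

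Of all genes tested, 59.6% were lower with AOS. Shares lower of 61.8% for antioxidant, 53.8% for heat shock, 54.5% for translocon and 57.6% for proteasome genes lay near or under it. Their counts of lower genes by sign alone therefore do not set these lists apart. At unadjusted p under 0.05, 26.5% of antioxidant and 23.1% of heat shock genes were lower, against 11.2% of all genes. For translocon and proteasome genes this share was 13.6% and 9.09%. Shares higher at that p were 8.82% for antioxidant, 7.69% for heat shock, 27.3% for translocon and 6.06% for proteasome genes, against 6.03%. Antioxidant genes were lower in 21 of 34 (9 lower and 3 higher at unadjusted p under 0.05, median -0.08), with the metallothionein Mt2 at 0.28 and the glutathione peroxidase Gpx1 at -0.25. Heat shock genes were lower in 14 of 26 (median -0.02, just above 0 with median-ratio scaling), with the chaperones Hsp90aa1 at -0.15 and Hspa8 at -0.13. Genes of the translocon and oligosaccharyltransferase were lower in 12 of 22 (median -0.03), among them the transferase subunit Stt3b (-0.21) and the signal peptidase subunit Spcs1 (0.16), each without overlap. Proteasome genes were lower in 19 of 33 (median -0.01, or 0.01 with median-ratio scaling), with Psmd1 at -0.15 and Adrm1 at 0.11. Immediate early genes were higher in 11 of 17 (median 0.02), with the phosphatase Dusp1 at 0.13 and Egr3 at 0.10. Retinoid genes were higher in 9 of 17 (median 0.02), with Aldh1a2 at -0.11. Apoptosis genes were higher in 8 of 16, with Bcl2l14 at 0.10 and Casp8 at 0.12, and inflammation genes in 4 of 9, with Relb at -0.17 and Nfkb1 at -0.07.

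The AOS effect was also taken within each diet and its difference between diets was tested. Limma called 0 genes for AOS minus control (1656 at unadjusted p under 0.05, 12.6%, lowest adjusted p 0.143) and 0 for HFD-AOS minus HFD (1273, 9.71%, lowest adjusted p 0.257). For the interaction, limma called 0 genes, with 705 at unadjusted p under 0.05 (5.38%) and a lowest adjusted p of 0.278. In simulated data the interaction test recovered 0 of 200 changed genes at a log2 change of 0.25 and 93 at 0.5. Differences between diets of that size can thus be missed, and 0 calls do not show an equal AOS effect in both diets. The 5 genes of smallest p whose AOS effect was more positive on the diet were Adi1, Capg, Sh2d6, Ttll6 and Tpm3, and the 5 with a more negative effect were Btbd35f20, Arg2, Sh2b2, Plcg2 and Btbd35f22. Adi1, an enzyme of methionine salvage, had 3.24, 3.1 and 3.05 FPKM in AOS against 5.58, 4.49 and 6.02 FPKM in control, and 4.71, 5.29 and 5.18 FPKM in HFD-AOS against 4.28, 4.44 and 3.5 FPKM in HFD. AOS values were thus below control without the diet and above HFD with it (interaction 0.88, limma adjusted p = 0.298). Arg2, the mitochondrial arginase, had the opposite order (interaction -1.36, limma adjusted p = 0.813). For the late sterol genes the interaction ran from -0.19 to 0.16, with a lowest limma adjusted p of 0.919.

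The FMT libraries were left out of the AOS comparison and give the level of the same groups in 6 further libraries. As a mean log2 deviation from the average of all 18 libraries, late sterol synthesis lay between -0.12 and -0.05 in AOS, against 0.15 to 0.27 in control, and between -0.17 and -0.09 in HFD-AOS, against 0.02 to 0.20 in HFD. Both FMT groups lay nearer to the libraries given AOS than to HFD, with -0.12 to 0.08 in HFD-AOSFMT and -0.12 to -0.04 in HFD-conFMT. Msmo1 had 14.51, 14.99 and 18.89 FPKM in HFD-AOSFMT and 13.9, 11.6 and 15.6 FPKM in HFD-conFMT. HFD-AOSFMT replicate 3, at 0.08, lay within the range of HFD. Complex I genes lay between -0.01 and 0.03 in AOS, against -0.12 to -0.09 in control, and between -0.07 and 0.09 in HFD-AOS, against -0.13 to -0.00 in HFD, with 0.03 to 0.09 in HFD-AOSFMT and 0.03 to 0.13 in HFD-conFMT. HFD-AOS replicate 1 was the low one of its group at -0.07, and it was also low for small ribosomal subunit genes (-0.14) and Sm and LSm genes (-0.14). For HFD-AOSFMT minus HFD-conFMT, limma called 1 gene (0.00763%), with 409 at unadjusted p under 0.05 (3.12%). The gene was Kap, an androgen-regulated kidney gene, at 37.7, 31.5 and 36.3 FPKM in HFD-AOSFMT and listed at 0 in HFD-conFMT (limma adjusted p = 1.48e-16). Between the FMT groups the median log2 difference was 0.04 for late sterol genes, with 4 of 11 lower, and -0.00 for fatty acid synthesis. Of the genes lower with AOS at unadjusted p under 0.05, 47.3% were also lower in HFD-AOSFMT than in HFD-conFMT, where 52.9% of all genes were lower. Of those higher with AOS, 46.1% were also higher there, against 47.1% of all genes.

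**Figure D5:**
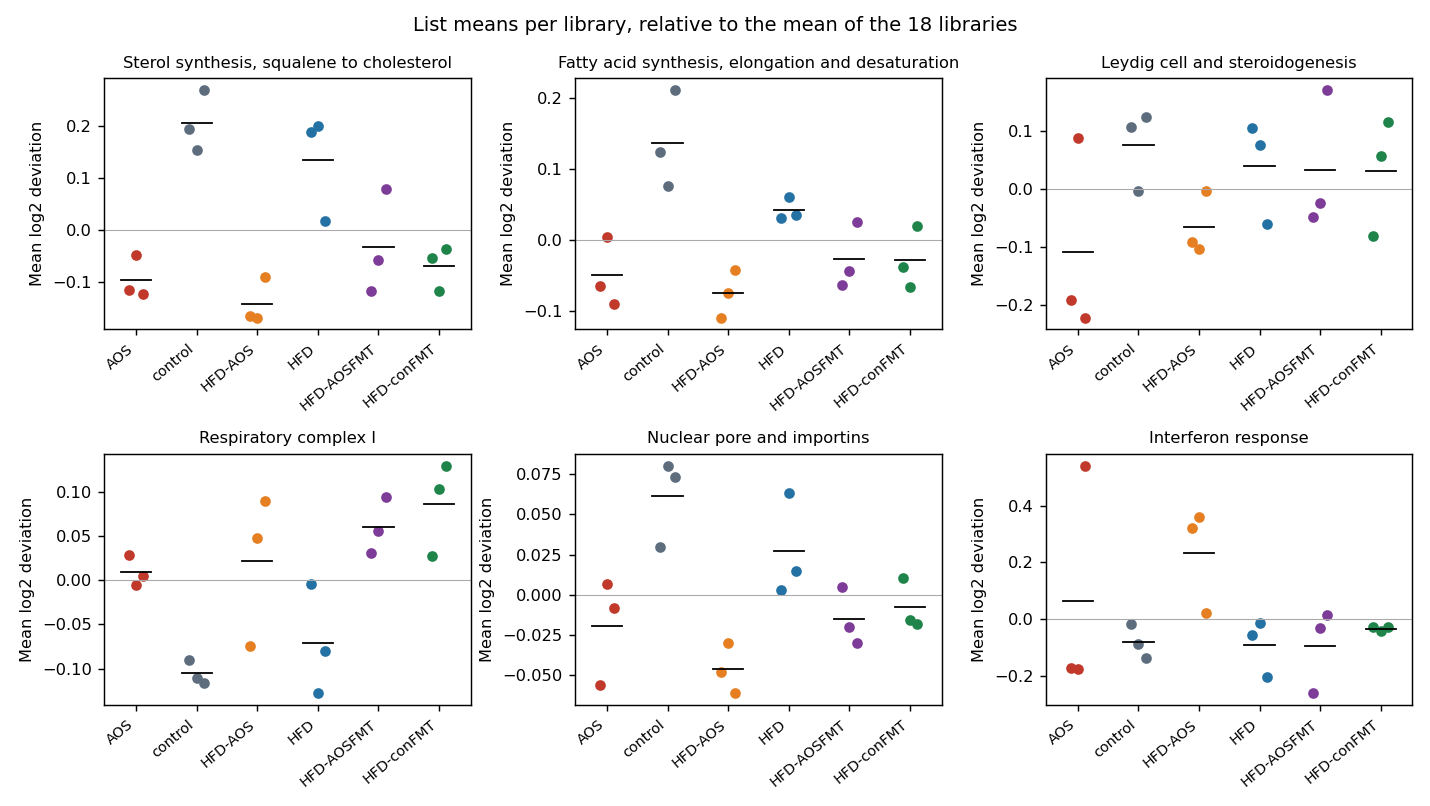
Mean log2 deviation of 6 gene lists from the average of the 18 libraries, with each point 1 library and the bar the group mean. In late sterol synthesis the control and HFD libraries lie above 0 and all AOS and HFD-AOS libraries below it, with 5 of the 6 FMT libraries also below 0, and the interferon panel shows 1 high AOS library.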

How the data were processed

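RNA was measured by sequencing in mouse testis. Trizol and then column purification gave the total RNA for standard Illumina libraries, per the labels' protocols. Reads were aligned with Bowtie 0.12.2 to mm10, per the submitters' processing notes. The deposited table gave FPKM values by the authors to 2 decimals for 20985 rows; its header names no unit, and FPKM was inferred from values that step with transcript length and library sums that differ. Which tool counted the reads, on which annotation and with which strand setting, is not given in the sources used here. No depth is given, counting intervals are therefore left out, and 3 libraries a group limit the precision.

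After 6 rows of 3 repeated symbols were dropped, 13105 genes averaging 1 FPKM or more were tested. Values were log2 transformed with a pseudocount of 1. Limma 3.58.1 in R 4.3.3 fitted an additive model of AOS and diet (9 residual degrees of freedom) with an intensity trend, and a model of 4 group means (8 residual degrees of freedom) for the interaction and the within-diet contrasts. P-values were adjusted by Benjamini-Hochberg over all genes, with a threshold of 0.05. The FMT contrast came from a fit of all 18 libraries. The 12 libraries were set by their treatment labels and the gene lists were written from general knowledge, both with earlier results of these data known. Genes were named by smallest p, 5 in each direction for the AOS effect and the interaction and 2 in each list; some of these are not reported here. The other sterol, fatty acid, Leydig, kallikrein and marker genes named were chosen after their values were seen. Transcript lengths covered 98.1% of tested genes. Tested on simulated data for the AOS effect with 13105 genes, of which 200 were changed, the model recovered 70 at a log2 change of 0.25, 178 at 0.5 and 194 at 1. For the interaction, the model of 4 group means recovered 0, 93 and 176 of 200 at the same changes. Among unchanged genes, 3, 11 and 18 were called for the AOS effect and 0, 5 and 3 for the interaction. The simulated noise was independent between genes and held no trend with length or GC, so recovery in these data may differ. Alternatives varied the pseudocount, filter, scaling, weights, libraries, diet term, replicate block and length trend.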

Additional observations from a re-analysis of the deposited data

Results flagged for a closer look

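Over 90 genes and 3 library measures, 186 sets of 6 libraries were checked, and 6 held a library far from the others. The threshold was a 95% critical value, which by its construction about 1 in 20 sets pass by chance. Among libraries given AOS, Mvd was 1.66 FPKM in HFD-AOS replicate 1, against 2.03 to 2.14 FPKM in the other 5. Soat1 was 8.4 FPKM in AOS replicate 3, against 7.63 to 7.73 FPKM in the others. Aldh1a2 was 51.95 FPKM in HFD-AOS replicate 2, against 46.37 to 48.37 FPKM in the others. H2-Eb1, a class II antigen presentation gene, was 4.72 FPKM in AOS replicate 2, against 1.66 to 2.23 FPKM in the others. Adipoq was 10.18 FPKM in the same library, against 12.03 to 13.12 FPKM in the others. Among libraries without AOS, Crisp1 was 158.77 FPKM in control replicate 3, against 0.15 to 2.71 FPKM in the others.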

How the results depend on the processing

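With a limma adjusted p under 0.05, the AOS effect had 0 genes higher and 0 lower. It stayed at 0 and 0 with a pseudocount of 0.1, without a filter, without the diet term and with the length and GC trend removed. The counts higher and lower were 12 and 10 with a mean of at least 5 FPKM (8628 genes), 3 and 1 with quantile normalization, 11 and 2 with median-ratio scaling, 33 and 30 with array weights, and 112 and 176 with all 18 libraries. Same-numbered libraries correlated at -0.05 to 0.16, 3 of 12 correlated best with their own number, and the numbers share no stated origin. The replicate block gave 26 and 19, and the replicate block with the length and GC trend removed gave 2 and 0. Leaving out 1 library gave 0 to 33 higher and 0 to 13 lower, with 33 and 13 without HFD-AOS replicate 1. The interaction had 1 call without a filter and 0 to 1 when 1 library was left out. AOS minus control had 1 call without a filter, 2 with array weights, 3 with all 18 libraries and 1 with the block and trend removal. HFD-AOS minus HFD had 1 call without a filter and 0 to 1 when 1 library was left out. The cause of these moves was not tested. For single genes the AOS effect reversed once, for Pparg. Its value was -0.00776 without AOS replicate 3, reached 0.0449 at most when another library was left out, and was highest, 0.0464, with quantile normalization. The median of late sterol synthesis ranged from -0.38 to -0.26 over 23 settings, and that of fatty acid synthesis from -0.16 to -0.11. Of the list medians, 841 moved by less than the SD of the list level over the 6 libraries without AOS, and 32 by more. The median before squalene was -0.12 without control replicate 1, that of kallikreins ran from -0.14 without a filter to 0.06 without HFD replicate 3, that of macrophages and leukocytes was -0.04 without AOS replicate 2, and that of the interferon response ran from 0.10 to 0.27. Medians near 0 of kallikreins, peritubular, inflammation and apoptosis genes turned positive under quantile normalization and median-ratio scaling. Depth is unknown, so what it limits could not be assessed.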
